A study of Homo sapiens with 60 samples.

Results

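Yijin-tang, a decoction of several herbs used in Korean medicine, was applied to HepG2 cells as a hot-water extract at 3 doses, and the contrast described here is its high dose (500 µg/mL) against its low dose (20 µg/mL). These groups hold 3 libraries each, 6 of the 60 libraries in the series, and the 3 libraries of the medium dose (100 µg/mL) are shown for dose order, so 9 libraries carry the account. They were chosen by their labels alone. HepG2 is an established human liver cancer line that keeps much of the secretory and metabolic gene expression of hepatocytes. RNA was collected after 24 h of exposure. The series applied 8 herbal extracts in this way, among them Soshiho-tang, a second decoction that is used below for 1 comparison at the same high and low doses (2 libraries each), and it includes 3 vehicle libraries. Vehicle is given as 0.1% DMSO in the sample labels and as 2% DMSO in the series text. Whether the 3 libraries of a dose came from separate cultures is not stated. The p-values below rest on the spread between libraries of the same group, estimated over 54 libraries in 19 groups. That spread may be technical. No sample label names a genetic change, and every group shares the same line and exposure time.

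As background, the hepatocyte secretes most plasma proteins, among them coagulation factors, complement components, lipid carriers and the iron hormone hepcidin. Their genes depend on a set of liver transcription factors such as C/EBP alpha and the FOXA proteins, on nuclear receptors that sense bile acids and lipids, and, for hepcidin, on the BMP-SMAD pathway. Growth of the same cells rests on glycolysis, on the building of ribosomes in the nucleolus and on the chaperones and proteasomes that fold and remove proteins. The account below follows these functions and leaves aside the xenobiotic receptor, oxidative stress, metallothionein and sterol genes, which responded most strongly to the high dose and serve here only as reference.

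The high dose changed many genes by small amounts. Of 16924 genes tested, 1318 (7.79%) differed between high and low dose at a Benjamini-Hochberg adjusted p under 0.05 in edgeR's quasi-likelihood test. Of these, 640 (3.78% of the tested genes) were higher and 678 (4.01%) were lower at the high dose. The median change was 1.19-fold among the higher genes and 1.24-fold among the lower ones. At least 2-fold changes were seen for 27 higher and 41 lower genes, and changes under 1.25-fold for 435 higher and 360 lower genes. The 5 lists of reference genes (targets of the xenobiotic receptor and of NRF2, metal response, cholesterol and fatty acid synthesis) held 62 of the called genes, and 1006 belonged to none of the 42 lists used. All lists were chosen with earlier results of these data known, so list shares and medians below are descriptions and not tests. Each list count below stands beside a background of 3.78% of tested genes called higher and 4.01% called lower. The share called depended on level. It was 1.45% of genes under 1 CPM (read counts scaled to a common library size), 5.51% from 1 to 10 CPM, 9.72% from 10 to 100 CPM and 16.7% above 100 CPM, so lists of abundant genes started from a higher background. In 632 of the 640 higher genes and 668 of the 678 lower ones the 3 high-dose libraries did not overlap the 3 low-dose libraries, against 27.6% of all tested genes. Without high-dose replicate 2, the number of calls was 836 (379 higher, 457 lower). With scaling by library size alone it was 412 higher and 736 lower.

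**Figure D1:**
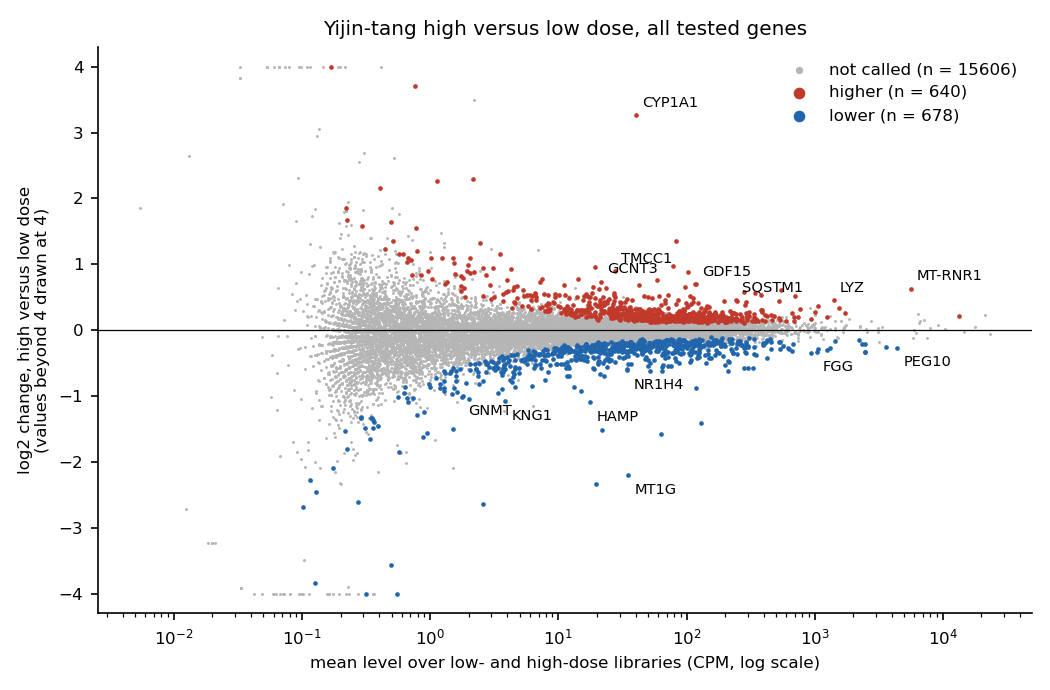
Log2 change between high and low dose (vertical axis) against the mean level over the 6 libraries in CPM (horizontal, log scale) for each of the 16924 tested genes. Red points are the 640 genes called higher and blue points the 678 called lower. Above 10 CPM most calls lie within 1 log2 unit of 0, with the reference genes CYP1A1 and MT1G far outside that band, and values beyond 4 are drawn at 4.

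Library depth was 23453668 to 30690514 reads assigned to genes in the 9 Yijin-tang libraries and 20744960 to 37999124 over all 60. On the first principal component of the 9 libraries (35.3% of the variance), the high-dose libraries lay at -9.35 to -11.02 and the medium- and low-dose libraries at 2.35 to 6.80. Hepatocyte markers (ALB, AFP, APOA1, APOA2, APOB, TTR, SERPINA1 and FGB) summed to between 40758 and 45833 CPM in these libraries. Markers of fibroblasts, endothelium, fat and red cells summed to at most 14.98 CPM in any of them. The leukocyte list summed to 1211 to 1225 CPM at the low dose and 1634 to 1724 CPM at the high dose, nearly all of it lysozyme (LYZ), while PTPRC and CD3E, which define leukocytes and T cells, were at 0 in all 9 libraries. In bulk RNA, fewer cells expressing a gene and less RNA per cell cannot be told apart.

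Hepcidin and several genes of iron handling and BMP signaling were lower at the high dose. HAMP (chr19:35280716-35285143, gene positions here and below in build GRCh38 with GENCODE 29 gene models) encodes hepcidin, the hormone that blocks the cellular iron exporter and so lowers the entry of iron into blood. Its level was 21.2, 25.7 and 25.5 CPM in the low-dose libraries, 24.8, 22.5 and 24.6 CPM at the medium dose and 11.9, 11.3 and 10.8 CPM at the high dose. The high-dose libraries all lay below the lowest of the other 6, while low and medium dose overlapped. The log2 change from low to high dose was -1.09 ± 0.18 (standard error, as after every ± of a log2 change), adjusted p = 2.1e-05 in edgeR's quasi-likelihood test. Vehicle libraries stood at 24.2, 24.9 and 27.4 CPM, a range that overlapped the low dose. TMPRSS6, a protease that restrains hepcidin expression by cutting a BMP co-receptor, also fell, with a log2 change of -0.59 ± 0.11 and adjusted p = 3.6e-04.

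Within the list of iron and BMP-SMAD genes, 8 of 24 tested members were lower and 2 were higher, and the median log2 change was -0.15, against -0.003 over all tested genes. The inhibitory SMAD gene SMAD7, a direct target of the pathway, was at 24.3, 25.5 and 24.9 CPM in the low-dose libraries, 22.8, 23.96 and 26.4 CPM at the medium dose and 20.5, 19.6 and 19.2 CPM at the high dose. All high-dose values lay below all others, and the log2 change was -0.33 ± 0.06 (adjusted p = 2.0e-04). BMP4, a ligand of the pathway, moved the other way, from a low-dose mean of 123 ± 0.296 to a high-dose mean of 149.9 ± 2.46 CPM (SD, n = 3), a log2 change of 0.28 ± 0.05 (adjusted p = 1.7e-05). Also called lower were ID2, SMAD6, SMAD9, TFR2 and ACO1, with log2 changes of -0.46, -0.31, -0.29, -0.23 and -0.15. The receptor for iron-loaded transferrin, TFRC, was higher by 0.22. Without low-dose replicate 3 only 1 of the 2 higher members was called.

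The HAMP promoter is shown because HAMP had the lowest log2 change of the named genes outside the reference lists and because the BMP-responsive element of hepcidin contains the letters GGCGCC. The sequence is RefSeq's, build GRCh38.p14, chr19:35282278-35282577 on the plus strand, from 250 bases before the annotated start to 50 after it, with each GGCGCC in capitals.
HAMP: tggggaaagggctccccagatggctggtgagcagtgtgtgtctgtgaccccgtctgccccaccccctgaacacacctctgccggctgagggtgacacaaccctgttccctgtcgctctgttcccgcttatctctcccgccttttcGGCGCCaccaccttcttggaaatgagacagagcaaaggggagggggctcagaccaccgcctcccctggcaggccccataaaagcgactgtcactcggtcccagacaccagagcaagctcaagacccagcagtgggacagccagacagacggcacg
GGCGCC, which reads the same on both strands, occurred once in this window, starting 105 bases before the start. It was found in 29.8% of the 11347 promoters of tested genes that the RefSeq table holds, and in 2 of the 6 called-lower genes of the iron list with a promoter there. The match is a description of the letters, and the data carry no measurement of binding.

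Genes for plasma proteins were lower in several classes. In the coagulation list 8 of 25 tested members were lower and 2 were higher (median log2 change -0.19). KNG1 (chr3:186717276-186744410) encodes kininogen, the source of bradykinin and a cofactor of contact activation. It was at 4.87, 4.93 and 5.85 CPM in the low-dose libraries, 5.07, 4.87 and 4.37 CPM at the medium dose and 2.22, 2.83 and 2.32 CPM at the high dose, and every high-dose value was below every other value. Its log2 change of -1.08 ± 0.13 (adjusted p = 2.7e-08) was the lowest in the list. SERPINA5, the protein C inhibitor (chr14:94561442-94593120), stood at 402, 398 and 384 CPM in the low-dose libraries, 357, 334 and 358 CPM at the medium dose and 305, 305 and 304 CPM at the high dose. Here the 3 doses did not overlap, with the medium dose in between, and the log2 change was -0.37 ± 0.04 (adjusted p = 1.2e-08).

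Fibrinogen is assembled from 3 chains, and all of their genes were called lower. FGA was at 1356, 1369.6 and 1387 CPM in the low-dose libraries, 1337, 1353 and 1318 CPM at the medium dose and 1143, 1079 and 1131 CPM at the high dose, and FGG at 1126, 1157 and 1183 CPM in the low-dose libraries, 1146, 1165 and 1091 CPM at the medium dose and 936, 917 and 909 CPM at the high dose. For both, each high-dose library lay below each medium- and low-dose library. The log2 changes were -0.29 ± 0.04 for FGA (adjusted p = 1.4e-07), -0.33 ± 0.05 for FGG (adjusted p = 9.8e-06) and -0.26 for FGB (adjusted p = 0.0035). TFPI, the inhibitor of the tissue factor pathway, was called higher (0.27).

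Complement genes gave 11 lower and 1 higher among 23 tested members, with a median log2 change of -0.21. CFB, factor B of the alternative pathway (chr6:31945650-31952084), was at 149.8, 156 and 163 CPM in the low-dose libraries, 139, 144 and 149 CPM at the medium dose and 118, 116 and 129 CPM at the high dose. Values stepped down with dose and no dose overlapped another. Its log2 change between high and low was -0.37 ± 0.04 (adjusted p = 2.6e-08). C3, the central component of the cascade, was at 2672, 2714 and 2603 CPM in the low-dose libraries, 2507, 2482 and 2500.3 CPM at the medium dose and 2274, 2303 and 2325 CPM at the high dose, again without overlap between doses, and changed by -0.21 ± 0.04 (adjusted p = 8.1e-04). C4BPA, which encodes a chain of the C4b-binding protein, changed by -0.41 ± 0.07, and C2 by -0.23 ± 0.04. The higher member was MASP1, a protease of the lectin pathway (0.28). Without high-dose replicate 1 or without high-dose replicate 2, 7 members were called lower.

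Among acute phase proteins and plasma carriers 11 of 24 tested members were lower and 1 was higher (median -0.17). SERPINA6, which carries cortisol, fell from a low-dose mean of 138 ± 3.79 to a high-dose mean of 103 ± 3.45 CPM (SD, n = 3), a log2 change of -0.43 ± 0.07 (adjusted p = 2.3e-05). SERPINA7, which carries thyroxine, stood at 137, 136 and 142 CPM in the low-dose libraries, 123, 126 and 124 CPM at the medium dose and 107, 107 and 106 CPM at the high dose, and the medium-dose values lay between the other groups without touching either. The inter-alpha-trypsin inhibitor chains ITIH1 (-0.69), ITIH4 (-0.64), ITIH3 (-0.18) and ITIH2 (-0.16) were all called lower. Ceruloplasmin, the copper carrier encoded by CP, was the higher member (0.34). Without low-dose replicate 3, the number called lower was 7. A2M, an abundant broad protease inhibitor, was at 3999, 3953 and 3836 CPM in the low-dose libraries, 3461, 3523 and 3544 CPM at the medium dose and 3257, 3262 and 3316 CPM at the high dose. Its largest step came between low and medium dose, where a log2 change of -0.16 had an adjusted p of 0.61, and its log2 change from low to high was -0.26 ± 0.04 (adjusted p = 5.6e-05).

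Albumin itself did not pass the test, with a log2 change of -0.12 ± 0.06 and adjusted p = 0.30. With only the Yijin-tang libraries in the fit, its adjusted p was 0.0036. In the lipoprotein list 5 of 21 members were lower and 1 was higher (median -0.20). LIPC, the hepatic lipase, was at 21.8, 22.3 and 23.7 CPM in the low-dose libraries, 20.3, 20.8 and 19.7 CPM at the medium dose and 18.4, 18.1 and 17.98 CPM at the high dose, in which the doses did not overlap, and changed by -0.32 ± 0.06 (adjusted p = 2.0e-04). That list depended on single libraries: 1 member was called lower without high-dose replicate 1, 2 without low-dose replicate 3, and 3 without high-dose replicate 2, high-dose replicate 3 or low-dose replicate 2.

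**Figure D2:**
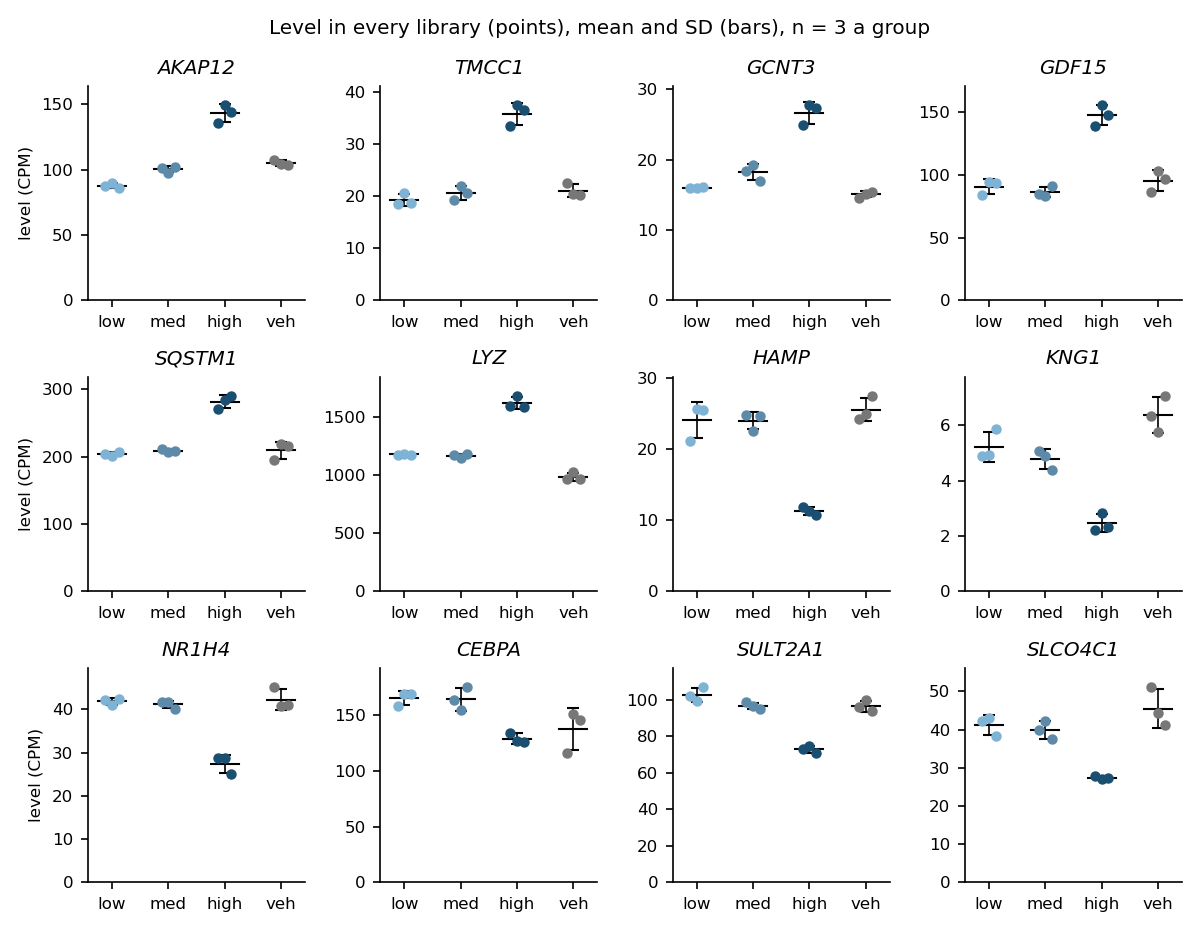
Level in CPM (vertical axes, from 0) of 12 genes in each library of the low, medium and high dose (med, medium) and vehicle (veh) groups, with the mean and SD of 3 libraries a group. For all 12 genes the 3 high-dose points lie apart from the 3 low-dose points, and for HAMP, NR1H4, LYZ and SQSTM1 the medium-dose points lie within the range of, or close to, the low-dose points.

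Several regulators of the hepatocyte program were lower. NR1H4 (chr12:100473708-100564413) encodes FXR, the nuclear receptor for bile acids. It was at 42.1, 40.99 and 42.3 CPM in the low-dose libraries, 41.7, 41.6 and 40.1 CPM at the medium dose and 28.6, 28.7 and 24.98 CPM at the high dose. Medium and low dose overlapped, and the high-dose values were all below them. Its log2 change was -0.61 ± 0.07 (adjusted p = 4.1e-09), and the step from medium to high differed from the step from low to medium by -0.56 ± 0.11 on the log2 scale (adjusted p = 0.0052). CEBPA (chr19:33299934-33302564), the gene of C/EBP alpha, was at 158, 169 and 169 CPM in the low-dose libraries, 163, 154 and 175 CPM at the medium dose and 134, 126 and 126 CPM at the high dose and changed by -0.36 ± 0.06 (adjusted p = 8.3e-05). Vehicle libraries had 116, 151 and 145 CPM of CEBPA, a spread that overlapped the high dose. FOXA1, a pioneer factor of liver genes, changed by -0.23 ± 0.04 (adjusted p = 3.1e-04), from a low-dose mean of 147 ± 1.83 to a high-dose mean of 126 ± 4.28 CPM (SD, n = 3).

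Liver transcription factors as a list gave 4 lower and 0 higher of 25 tested, with a median of -0.11. The list of nuclear receptors and bile acid genes gave 7 lower and 2 higher of 29 (median -0.14). Its higher members were PPARG, an adipogenic nuclear receptor (0.33 ± 0.08), and BAAT, the enzyme that conjugates bile acids to glycine or taurine. BAAT rose from a low-dose mean of 3.69 ± 0.211 to a high-dose mean of 5.90 ± 0.285 CPM (SD, n = 3), with a log2 change of 0.67 ± 0.14 and adjusted p = 0.0010, and its medium-dose libraries (5.19, 4.47 and 4.12 CPM) lay between the other groups. The count of lower members in this list was 2 without high-dose replicate 3, low-dose replicate 1 or low-dose replicate 2, 3 without high-dose replicate 1 and 4 without high-dose replicate 2.

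Drug-metabolizing enzymes moved in both directions, 7 higher and 9 lower of 46 (median -0.08). SULT2A1 (chr19:47870466-47886397), which sulfates steroids and bile acids, was at 102, 99.3 and 107 CPM in the low-dose libraries, 98.6, 96.6 and 94.9 CPM at the medium dose and 72.9, 74.5 and 71.1 CPM at the high dose. No high-dose value reached the medium or low range, and the log2 change was -0.50 ± 0.06 (adjusted p = 2.0e-07). CES1, the main liver carboxylesterase, averaged 80.3, 84.5 and 64.002 CPM at the low, medium and high dose, and low and medium dose overlapped. Its upper step differed from its lower step by -0.47 ± 0.11 (adjusted p = 0.035). CYP2J2, an epoxygenase of fatty acids, rose from a low-dose mean of 3.49 ± 0.731 to a high-dose mean of 5.51 ± 0.105 CPM (SD, n = 3) (log2 change 0.65 ± 0.15, adjusted p = 0.0020). Counts of higher members were 3 without high-dose replicate 2 and 4 without high-dose replicate 3 or low-dose replicate 1, and 5 members were lower without high-dose replicate 1.

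Membrane transporters and channels had the highest share called of the 37 described lists, 7 higher and 10 lower of 28 (60.7%, against 7.79% of all tested genes). Because members were chosen with earlier results of these data known, this share may partly reflect the choice. SLCO4C1 (chr5:102233986-102296549), an organic anion transporter, was at 42.3, 43.03 and 38.2 CPM in the low-dose libraries, 39.9, 42.2 and 37.6 CPM at the medium dose and 27.7, 27.03 and 27.3 CPM at the high dose. The high-dose libraries were within 1 CPM of each other and below all others, and the log2 change was -0.59 ± 0.07 (adjusted p = 3.9e-08). SLC13A3, a carrier of dicarboxylates, fell from a low-dose mean of 76.8 ± 3.43 to a high-dose mean of 53.4 ± 0.88 CPM (SD, n = 3) (log2 change -0.53 ± 0.05, adjusted p = 5.0e-11). SLC6A12, which imports betaine, was at 8.48, 7.70 and 7.97 CPM in the low-dose libraries, 8.43, 6.36 and 6.62 CPM at the medium dose and 4.64, 4.27 and 4.56 CPM at the high dose and changed by -0.84 ± 0.10 (adjusted p = 6.0e-08). Outside the list, SCNN1A, the alpha subunit of the epithelial sodium channel, stood at 24.4, 26.96 and 27.1 CPM in the low-dose libraries, 21.2, 23.2 and 22.6 CPM at the medium dose and 16.3, 16.2 and 16.8 CPM at the high dose, with no overlap between any 2 doses, and changed by -0.67 ± 0.08 (adjusted p = 1.2e-08). SLC1A2, a glutamate carrier, changed by -0.70 ± 0.10 (adjusted p = 3.1e-06). The 7 higher members included the efflux pumps ABCG2 (0.51), ABCB1 (0.34) and ABCC1 (0.20). With scaling by library size alone 3 members were higher.

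Zinc carriers were near background, with 1 higher and 1 lower of 17 tested. SLC39A4, a zinc importer, was at 92.6, 94.1 and 93.999 CPM in the low-dose libraries, 98.3, 90.9 and 105 CPM at the medium dose and 125, 133 and 138 CPM at the high dose, with the high dose above all other libraries and a log2 change of 0.50 ± 0.06 (adjusted p = 1.8e-08). SLC30A10, a manganese exporter of the zinc exporter family, was at 18.6, 19.3 and 17.2 CPM in the low-dose libraries, 20.6, 18.3 and 20.8 CPM at the medium dose and 15.1, 14.1 and 12.98 CPM at the high dose. Low and medium dose overlapped, and the high dose lay below both. The upper step differed from the lower step by -0.62 ± 0.10 (adjusted p = 9.4e-04).

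Amino acid breakdown and the urea cycle gave 8 lower and 4 higher of 34 (35.3% called, against 7.79% of all tested genes). GNMT (chr6:42960758-42963880), which uses up S-adenosylmethionine by methylating glycine, was at 2.27, 2.22 and 2.60 CPM in the low-dose libraries, 1.76, 1.77 and 1.75 CPM at the medium dose and 1.27, 1.12 and 1.14 CPM at the high dose. Its 3 doses did not overlap, and the log2 change was -1.01 ± 0.18 (adjusted p = 6.5e-05). AGXT, which detoxifies glyoxylate, fell from a low-dose mean of 22.3 ± 1.11 to a high-dose mean of 14.9 ± 1.70 CPM (SD, n = 3) (log2 change -0.58 ± 0.07, adjusted p = 1.8e-07). GLUD1, glutamate dehydrogenase, changed by -0.24 ± 0.04. Betaine-homocysteine methyltransferase, BHMT (-0.60), and alanine aminotransferase, GPT (-0.59), were also called lower. Of the 4 higher members, 1 was called with library size alone or without low-dose replicate 2. Leaving out any high-dose replicate or low-dose replicate 1 gave 2.

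Among targets of the amino acid stress factor ATF4, 6 were lower and 2 were higher of 30 (median -0.07). SLC6A9, a glycine carrier, fell from a low-dose mean of 24.2 ± 1.97 to a high-dose mean of 17.6 ± 0.43 CPM (SD, n = 3) (log2 change -0.46 ± 0.07, adjusted p = 2.3e-06). The serine synthesis genes PHGDH and PSPH changed by -0.24 ± 0.05 and -0.22 ± 0.04. GDF15 (chr19:18374731-18389176), a stress-induced hormone listed under both ATF4 and p53, moved the other way and is described with the genes that rose. Of 27 p53 targets 4 were lower and GDF15 alone was higher (18.5% called, against 7.79% of all tested genes). DDB2, a DNA damage sensor, was at 48.1, 48.7 and 49.1 CPM in the low-dose libraries, 45.2, 46.6 and 46.5 CPM at the medium dose and 39.2, 39.1 and 40.8 CPM at the high dose without overlap between doses (log2 change -0.29 ± 0.04, adjusted p = 2.4e-06). In the p53 list 2 were called lower without high-dose replicate 2, high-dose replicate 3 or low-dose replicate 1. In the ATF4 list 1 member was called higher whichever of the 6 libraries was left out.

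Glycolysis and hypoxia genes were higher at the high dose. Of the list, 16 of 36 tested members were higher by edgeR and 0 were lower, and the median log2 change of 0.23 was the highest of the 37 described lists. ALDOA (chr16:30064164-30070457), an aldolase of glycolysis, was at 1354, 1358 and 1401 CPM in the low-dose libraries, 1324, 1346 and 1447 CPM at the medium dose and 1699, 1743 and 1754 CPM at the high dose. The high-dose values were above all others, and medium and low overlapped. Its log2 change was 0.34 ± 0.06 (adjusted p = 7.2e-05). PKM, pyruvate kinase, rose from a low-dose mean of 899.9 ± 8.08 to a high-dose mean of 1095 ± 38.7 CPM (SD, n = 3) (log2 change 0.28 ± 0.05, adjusted p = 3.4e-05). The largest changes in the list among called genes were those of the phosphofructokinase PFKP (0.57) and of PDK1, a kinase that inhibits pyruvate dehydrogenase (0.47). Other steps of the pathway called higher were HK2 (0.28), GPI (0.27), TPI1 (0.22), PGAM1 (0.22), ENO1 (0.26) and LDHA (0.37). The oxygen-sensing enzyme EGLN1 (0.23) and the mitophagy gene BNIP3 (0.33) were higher as well. At an unadjusted p under 0.05 the counts were 21 higher and 0 lower, where 9.08% of all tested genes were higher and 9.3% lower. The glucose-sensing list (targets of ChREBP and MondoA) had 0 of 10 called by edgeR, with a median of 0.11, against 1 by DESeq2 and 3 at an unadjusted p under 0.05, a threshold that 18.4% of all tested genes passed.

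The LDHA promoter is shown as an example of the letters ACGTG, the core of the element that hypoxia-inducible factors bind, in a called gene of this list. It is RefSeq's GRCh38.p14 sequence, chr11:18394313-18394612, plus strand, with ACGTG and its reverse complement CACGT in capitals, 5 matches of which some overlap as CACGTG.
LDHA: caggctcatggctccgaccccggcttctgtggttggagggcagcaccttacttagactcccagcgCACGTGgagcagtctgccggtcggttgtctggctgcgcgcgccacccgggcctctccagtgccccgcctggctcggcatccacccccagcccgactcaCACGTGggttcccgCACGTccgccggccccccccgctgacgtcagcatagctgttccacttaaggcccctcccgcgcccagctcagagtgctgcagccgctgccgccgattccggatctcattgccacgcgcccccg
In 9 of the 16 called genes the 300-base window held this motif on at least 1 strand, as did 14 of the 32 tested list members with a promoter in the table and 26.4% of the 11347 promoters of tested genes. ACGTG lies within the CACGTG motif, so some windows hold both. No test was made of these shares.

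Insulin and FOXO targets were split, 4 higher and 3 lower of 25. IGFBP1, a secreted binder of insulin-like growth factors, was at 49.2, 57.2 and 53.4 CPM in the low-dose libraries, 31.3, 37.6 and 63.9 CPM at the medium dose and 95.5, 113 and 105 CPM at the high dose. High-dose values exceeded all low-dose values, and the log2 change was 0.97 ± 0.26 (adjusted p = 0.012), which was 0.057 without high-dose replicate 2 and 0.056 without low-dose replicate 1. Vehicle libraries had 23.3, 25.3 and 29.6 CPM of IGFBP1. By edgeR the low dose was already above vehicle (log2 change 1.04, adjusted p = 0.0093), where sample code and treatment cannot be told apart. Counts of higher members were 1 without high-dose replicate 1, high-dose replicate 2 or low-dose replicate 1, and 2 without low-dose replicate 3. FOXO4, one of the FOXO factors, fell from a low-dose mean of 13.6 ± 0.323 to a high-dose mean of 10.8 ± 0.438 CPM (SD, n = 3) (log2 change -0.33 ± 0.08, adjusted p = 0.0040).

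Fatty acid oxidation genes and PPAR alpha targets were also split, 6 higher and 4 lower of 30. VNN1, which releases cysteamine from pantetheine and is a PPAR alpha target, was at 1.05, 0.815 and 1.20 CPM in the low-dose libraries, 1.05, 1.29 and 1.33 CPM at the medium dose and 1.78, 2.56 and 1.85 CPM at the high dose (log2 change 1.03 ± 0.21, adjusted p = 8.0e-04). Its high-dose libraries were above all others, at a low level. ACADVL, the first dehydrogenase for long chains, changed by 0.22 ± 0.05. ACSL1, which activates fatty acids, was at 50.98, 49.4 and 48.3 CPM in the low-dose libraries, 51.4, 50.8 and 48.9 CPM at the medium dose and 41.3, 42.9 and 41.3 CPM at the high dose. Low and medium dose overlapped, the high dose lay below both, and the difference between the steps was -0.29 ± 0.07 (adjusted p = 0.048). ACOT1, which releases fatty acids from coenzyme A and has a near-identical neighbour, ACOT2, with which it may share reads, changed by -0.49 ± 0.11, and its vehicle libraries had 12.02, 17.3 and 17.5 CPM, lower than any Yijin-tang low-dose library. The number higher was 3 without high-dose replicate 2 or low-dose replicate 1, and the number lower was 2 without low-dose replicate 3.

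Immediate early genes, which switch on within minutes of growth factor signaling, had 6 higher and 0 lower of 20 at 24 h (median 0.15). IER3, a survival gene, was at 53.8, 59.99 and 60.997 CPM in the low-dose libraries, 54.6, 58.1 and 55.1 CPM at the medium dose and 82.8, 86.1 and 84.6 CPM at the high dose, with the high dose above all others and a log2 change of 0.54 ± 0.10 (adjusted p = 1.3e-04). JUN, part of the AP-1 factor, rose from a low-dose mean of 25.6 ± 0.162 to a high-dose mean of 34.5 ± 0.804 CPM (SD, n = 3) (log2 change 0.43 ± 0.07, adjusted p = 1.9e-05). MYC, a driver of growth genes, was higher by 0.24 and FOSL1, another AP-1 part, by 0.46. The feedback list of MAP kinase signaling had 2 of 21 higher, near background, and 1 without high-dose replicate 2, low-dose replicate 1 or low-dose replicate 3.

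Genes of the YAP and TGF-beta response changed in both directions, 4 higher and 5 lower of 19. FST (chr5:53480409-53487134), which traps activins, was at 48.5, 50.7 and 50.8 CPM in the low-dose libraries, 46.6, 44.5 and 50.04 CPM at the medium dose and 70.9, 71.8 and 72.6 CPM at the high dose. The high-dose values lay above all others, and the upper step exceeded the lower by 0.70 ± 0.11 (adjusted p = 6.3e-04). INHBE, an activin subunit made by hepatocytes, went the opposite way, 13.2, 14.4 and 15.6 CPM in the low-dose libraries, 12.999, 13.8 and 14.4 CPM at the medium dose and 10.4, 9.50 and 9.01 CPM at the high dose (log2 change -0.58 ± 0.10, adjusted p = 2.8e-05). AMOTL2, a YAP target that in turn restrains YAP, changed by -0.33 ± 0.05 (adjusted p = 2.0e-05). The count of lower members was 2 without high-dose replicate 2 or low-dose replicate 1 and 3 without high-dose replicate 1, high-dose replicate 3 or low-dose replicate 2.

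Matrix and adhesion genes had 8 higher and 3 lower of 36. ITGA2 (chr5:52989326-53094779), the collagen-binding integrin alpha chain, was at 76.4, 79.7 and 71.97 CPM in the low-dose libraries, 76.5, 91.1 and 84.1 CPM at the medium dose and 109, 125 and 125 CPM at the high dose, and changed by 0.65 ± 0.08 (adjusted p = 2.0e-07). SPP1, the secreted phosphoprotein osteopontin, rose from a low-dose mean of 447 ± 13.8 to a high-dose mean of 605 ± 5.35 CPM (SD, n = 3) (log2 change 0.44 ± 0.08, adjusted p = 5.6e-05), and its medium-dose values (474, 478 and 462 CPM) lay between those of the other doses. COL2A1, a fibrillar collagen chain, was at 77.4, 77.8 and 80.7 CPM in the low-dose libraries, 72.2, 62.98 and 74.7 CPM at the medium dose and 50.1, 48.6 and 54.8 CPM at the high dose. The doses did not overlap, and the log2 change was -0.62 ± 0.09 (adjusted p = 3.2e-06). The count of higher members was 5 with library size alone or without high-dose replicate 2, and 4 without low-dose replicate 3.

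Of the genes with high log2 changes outside the reference lists, 4 are given here library by library. TMCC1 (chr3:129647792-129893606), a protein of the endoplasmic reticulum membrane, was at 18.5, 20.5 and 18.7 CPM in the low-dose libraries, 19.2, 21.9 and 20.6 CPM at the medium dose and 33.4, 37.4 and 36.4 CPM at the high dose. The high-dose libraries stood above all others, low and medium overlapped, and the log2 change was 0.89 ± 0.09 (adjusted p = 6.7e-10). GCNT3 (chr15:59594875-59640239), a glycosyltransferase that branches mucin sugars, was at 16.001, 15.9 and 16.1 CPM in the low-dose libraries, 18.4, 19.2 and 17.03 CPM at the medium dose and 24.9, 27.7 and 27.3 CPM at the high dose, and its 3 doses did not overlap (log2 change 0.74 ± 0.07, adjusted p = 2.6e-11). AKAP12, a scaffold for protein kinase A, was at 87.7, 89.95 and 85.7 CPM in the low-dose libraries, 101, 97.7 and 102 CPM at the medium dose and 136, 149 and 144 CPM at the high dose, again with the medium dose apart from both others. Its log2 change was 0.71 ± 0.07 (adjusted p = 1.1e-10). Vehicle libraries had 108, 105 and 103 CPM of AKAP12. By edgeR the low dose lay below vehicle (log2 change -0.26, adjusted p = 0.0049) and the high dose above it (0.44, adjusted p = 1.7e-06). GDF15 was at 83.7, 94.5 and 93.3 CPM in the low-dose libraries, 84.98, 83.1 and 90.9 CPM at the medium dose and 139, 155 and 148 CPM at the high dose; medium and low overlapped, and the log2 change from low to high was 0.70 ± 0.08 (adjusted p = 4.1e-08).

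Other genes in this range were CEMIP, which degrades hyaluronan (0.77 ± 0.09), CD109, a membrane protein that binds TGF-beta (0.69 ± 0.10), LGALS3, the lectin galectin-3 (0.66 ± 0.12), and GPAT3, an acyltransferase of triglyceride synthesis (0.73 ± 0.12). B4GALNT1, a ganglioside synthase, changed by 0.62 ± 0.08, and IL6R, the receptor of interleukin-6, by 0.50 ± 0.06. On the lower side stood CSF3R, the receptor of G-CSF (-0.70 ± 0.09), TJP3, a tight junction scaffold (-0.76 ± 0.10), and the less studied genes MAB21L4 (-0.86 ± 0.13), EXOC3L4 (-0.70 ± 0.12) and TNFAIP8L3 (-0.71 ± 0.11). Each passed the same test, with adjusted p from 2.3e-08 (CEMIP) to 1.7e-04 (LGALS3).

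Genes for ribosome building were higher, with 17 of 40 tested members called higher and 0 called lower by edgeR (median log2 change 0.15). At an unadjusted p under 0.05, 29 were higher and 0 lower, against 9.08% and 9.3% of all tested genes. Changes were small. DDX21, a nucleolar helicase, was at 286, 275 and 271 CPM in the low-dose libraries, 305, 316 and 285 CPM at the medium dose and 343, 336 and 327 CPM at the high dose, a log2 change of 0.27 ± 0.05 (adjusted p = 1.9e-04). NOLC1, a nucleolar scaffold, was at 208, 203 and 196 CPM in the low-dose libraries, 219.9, 214 and 214 CPM at the medium dose and 231, 228 and 233 CPM at the high dose, and its doses did not overlap (log2 change 0.19 ± 0.03, adjusted p = 4.3e-05). NOL6, a factor of the small ribosomal subunit, was at 78.6, 77.8 and 83.1 CPM in the low-dose libraries, 82.1, 79.6 and 86.3 CPM at the medium dose and 93.2, 93.7 and 92.97 CPM at the high dose (log2 change 0.22 ± 0.05, adjusted p = 8.1e-04). By count, 39 of the 40 members had a log2 change above 0. The list's median level was 94.4 CPM, against 14.2 CPM over all tested genes. None of 52 ribosomal protein genes passed edgeR's test, with a median of -0.002, and none of 13 mitochondrially encoded protein genes did. For both lists the count was also 0 at an unadjusted p under 0.05 and by DESeq2. With no filter on low counts 2 of the mitochondrially encoded genes were called higher. The count for ribosome building was 8 with library size alone or with no filter on low counts, 10 without high-dose replicate 2, 11 without high-dose replicate 3 and 9 without low-dose replicate 2.

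The NOL6 promoter is given as an example of CACGTG, the E-box that MYC and other factors bind. It is RefSeq's GRCh38.p14 sequence, chr9:33473875-33474174, minus strand, read in the direction of transcription with the motif in capitals.
NOL6: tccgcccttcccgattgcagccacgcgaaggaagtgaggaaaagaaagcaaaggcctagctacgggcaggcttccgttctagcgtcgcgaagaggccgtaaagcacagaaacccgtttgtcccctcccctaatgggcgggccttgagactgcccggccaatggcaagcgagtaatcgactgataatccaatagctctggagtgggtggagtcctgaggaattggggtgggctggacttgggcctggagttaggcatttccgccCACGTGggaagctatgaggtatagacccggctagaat
CACGTG reads the same on both strands. It was present in 7 of 14 called members of the ribosome list with a promoter in the table, in 12 of 33 tested members and in 10.1% of the 11347 promoters of tested genes. These shares were not tested.

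Several genes of protein folding and removal were higher by small amounts. Proteasome subunits gave 8 higher and 0 lower of 32 (median 0.13), all 8 of them of the regulatory particle. PSMB8, a proteasome subunit outside this list, was called lower (log2 change -0.21), a call not made in 5 of 12 alternative fits. PSMD11 was at 139, 144 and 137 CPM in the low-dose libraries, 147, 147 and 133 CPM at the medium dose and 167, 168 and 162 CPM at the high dose, above both other doses at the high dose (log2 change 0.24 ± 0.04, adjusted p = 1.4e-05), and PSMD1 changed by 0.26 ± 0.05 (adjusted p = 1.7e-04). The count was 4 with library size alone or without high-dose replicate 2, high-dose replicate 3 or low-dose replicate 1, and 5 without low-dose replicate 2. Chaperones of the endoplasmic reticulum had 6 higher and 0 lower of 29 (median 0.08, 20.7% called against 7.79% of all tested genes). HSPA5, the chaperone BiP, was at 1167, 1149 and 1134 CPM in the low-dose libraries, 1232, 1243 and 1174 CPM at the medium dose and 1331, 1348 and 1306 CPM at the high dose, without overlap between doses (log2 change 0.21 ± 0.03, adjusted p = 3.5e-05). Cytosolic chaperones, with 2 of 22 higher, and transfer RNA synthetases, with 2 of 20, were near background by edgeR's calls. At an unadjusted p under 0.05 the synthetases had 9 higher and 1 lower, against 9.08% and 9.3% of all tested genes, and DESeq2 called 4. For cytosolic chaperones these counts were 4 higher, 2 lower and 3. The cytosolic chaperone count by edgeR was 1 without high-dose replicate 1, low-dose replicate 2 or low-dose replicate 3.

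Lysosome and autophagy genes gave 3 higher and 3 lower of 35 (17.1% called, against 7.79% of all tested genes). SQSTM1 (chr5:179806398-179838078), the autophagy adaptor p62, was at 204, 201 and 207 CPM in the low-dose libraries, 212, 207 and 208 CPM at the medium dose and 271, 284 and 289 CPM at the high dose. High-dose libraries were above all others, and low and medium overlapped (log2 change 0.46 ± 0.04, adjusted p = 3.9e-12). SQSTM1 is also known as a target of NRF2. TFEB, the main activator of lysosome genes, was at 16.1, 16.3 and 15.7 CPM in the low-dose libraries, 15.1, 13.2 and 13.9 CPM at the medium dose and 11.6, 13.2 and 13.3 CPM at the high dose and changed by -0.33 ± 0.08 (adjusted p = 0.0027); its medium-dose values overlapped the high dose and not the low dose. Whichever of the 6 libraries was left out, 1 member was called lower.

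The circadian list had 5 lower and 0 higher of 17 (29.4% called, against 7.79% of all tested genes). TEF, a clock output factor, was at 17.3, 15.4 and 17.6 CPM in the low-dose libraries, 16.1, 15.8 and 15.8 CPM at the medium dose and 13.3, 12.3 and 12.6 CPM at the high dose (log2 change -0.40 ± 0.09, adjusted p = 0.0014). The count was 2 without high-dose replicate 1, low-dose replicate 2 or low-dose replicate 3 and 3 without high-dose replicate 3. Collection times are not given in the labels. Cell cycle genes were at or below background. None of 30 mitosis genes was called by edgeR or DESeq2, 2 had an unadjusted p under 0.05, and 3 of 38 S phase genes were higher, 1 without high-dose replicate 1 or high-dose replicate 3. With only the Yijin-tang libraries in the fit 1 mitosis gene was called higher. Respiratory chain genes of the nucleus had 0 of 43 called by edgeR, by DESeq2 or at an unadjusted p under 0.05, with a median of -0.01. Wnt targets (0 higher, 3 lower of 15), interferon genes (2 and 2 of 26), NF-kB genes (2 and 2 of 18) and cytoskeletal genes (6 and 1 of 34) made up the remainder. Their shares called were 20.0%, 15.4%, 22.2% and 20.6%, in that order, against 7.79% of all tested genes. The Wnt count was 0 without high-dose replicate 3 and 1 without low-dose replicate 2 or low-dose replicate 3, and the cytoskeletal count of higher members was 3 without high-dose replicate 2. For NF-kB genes 1 member was higher whichever library was left out, and 1 was lower without high-dose replicate 2, high-dose replicate 3 or low-dose replicate 3. Interferon genes called higher numbered 0 without high-dose replicate 1, high-dose replicate 3, low-dose replicate 1 or low-dose replicate 2 and 1 without high-dose replicate 2, and those called lower numbered 0 without high-dose replicate 2 or low-dose replicate 3 and 1 without low-dose replicate 2.

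**Figure D3:**
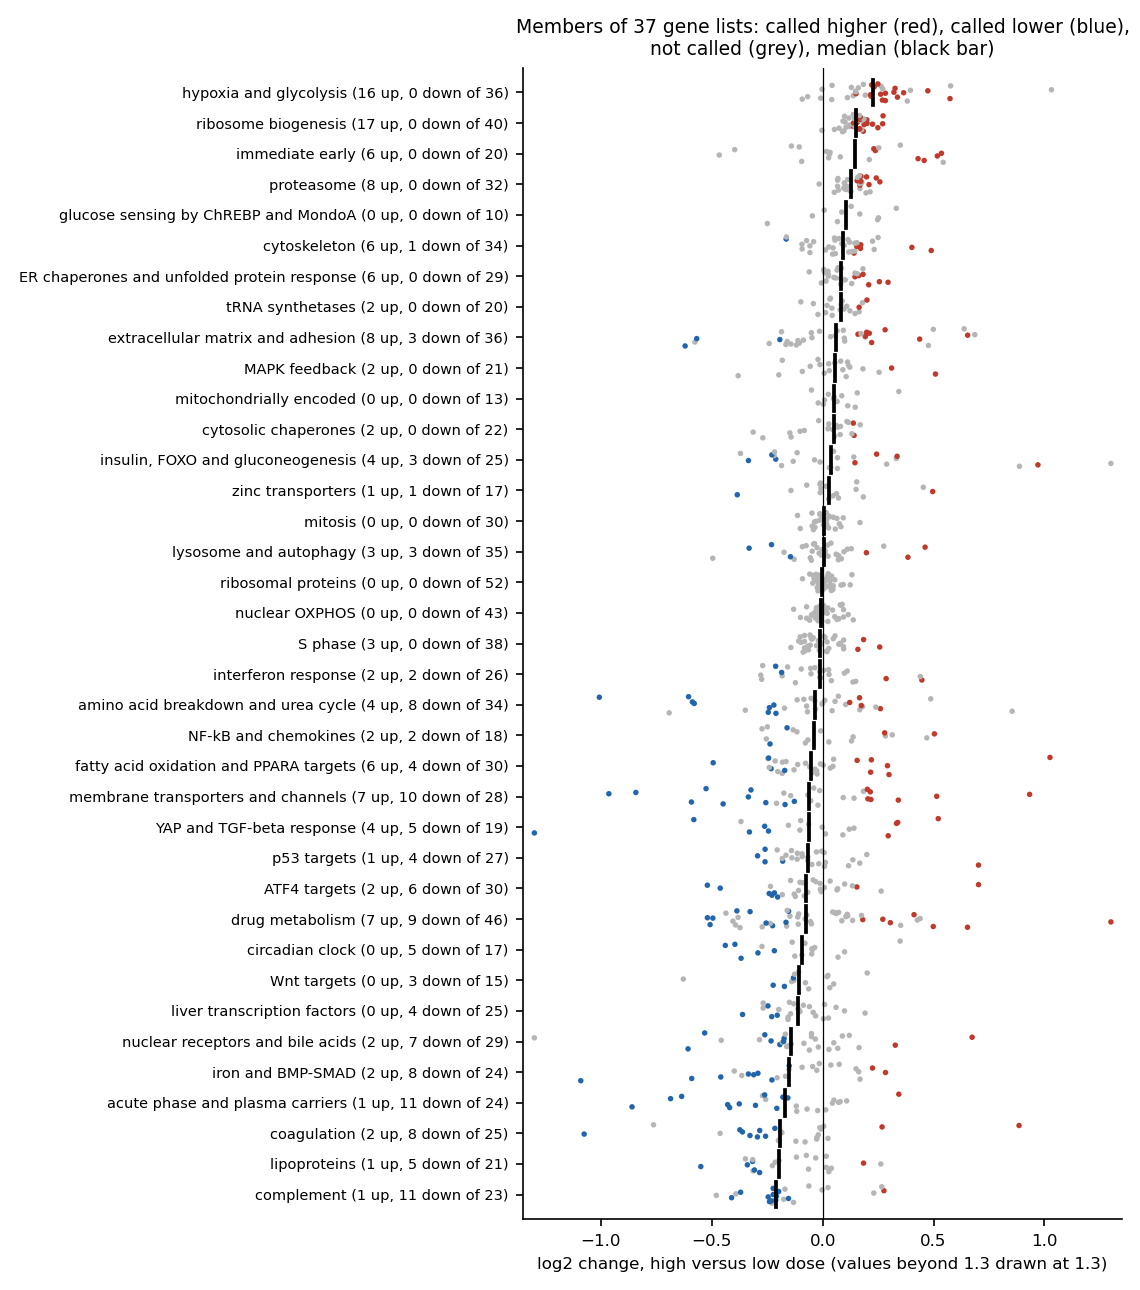
Log2 change between high and low dose (horizontal axis) of each tested member of the 37 described lists, ordered by the list's median (black bar), with called members in red (higher) or blue (lower) and others in grey. Glycolysis, ribosome building, immediate early and proteasome lists lie to the right of 0, and the complement, lipoprotein, coagulation and acute phase lists lie to the left.

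In absolute terms, the highest gain outside the reference lists was that of MT-RNR1, the 12S ribosomal RNA of mitochondria, at 4281, 4467 and 4433 CPM in the low-dose libraries, 4787, 5116 and 4701 CPM at the medium dose and 7179, 6776 and 6419 CPM at the high dose. The 3 doses did not overlap, and the log2 change was 0.63 ± 0.12 (adjusted p = 2.7e-04). Vehicle libraries had 6911, 6580.4 and 6398 CPM, the first 2 within the range of the high dose and the last just below it, and the low dose lay below both groups. The labels describe mRNA libraries, in which most ribosomal RNA is lost. LYZ (chr12:69348341-69354234), lysozyme, was at 1178, 1188 and 1177 CPM in the low-dose libraries, 1172, 1149 and 1181 CPM at the medium dose and 1599.9, 1679 and 1592 CPM at the high dose. The high dose lay above all other libraries, and low and medium overlapped (log2 change 0.46 ± 0.06, adjusted p = 6.9e-08). Losses were led by PEG10, a gene of retrotransposon origin expressed in placenta and liver cancer, at 5056, 4892 and 4389.9 CPM in the low-dose libraries, 4710.0, 4915 and 4605 CPM at the medium dose and 4038, 3943 and 3941 CPM at the high dose (log2 change -0.27 ± 0.06, adjusted p = 0.0016). FN1, fibronectin, changed by 0.22 ± 0.06 (adjusted p = 0.019), a call not made with library size alone or without high-dose replicate 2, high-dose replicate 3 or low-dose replicate 3 (adjusted p = 0.0502, 0.071, 0.066 and 0.18).

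The dose order was then read from the medium dose. Between medium and low dose 1 gene, CYP1A1, passed the threshold (0.00591% of tested genes). At an unadjusted p under 0.05 there were 860 genes (5.08% of tested genes), near the share that this threshold would pass if no gene differed. DESeq2 called 8. Between high and medium dose 788 genes (4.66%) were called, 376 higher and 412 lower, and 491 without high-dose replicate 2. Scaling by library size alone gave 254 higher and 443 lower. These contrasts share libraries with the contrast of high and low dose, so their values are only set side by side. HAMP changed by -0.01 from low to medium and by -1.08 from medium to high (adjusted p = 3.7e-05). For NR1H4 the same steps were -0.02 and -0.58 (adjusted p = 1.7e-08), and for SERPINA5 -0.17 and -0.20 (adjusted p = 0.0017). For SERPINA5 the lower step did not pass the test (adjusted p = 0.29).

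A direct test of the 2 dose steps, the change from medium to high minus the change from low to medium, was passed by 57 genes (0.337%), 27 with a positive and 30 with a negative difference. Because each dose was 5 times the one before it, even steps on the log scale would give 0. Outside the reference lists, the named genes with the smallest p on the positive side were B4GALNT1 (0.88 ± 0.14, adjusted p = 3.8e-04), FST, SQSTM1 (0.40 ± 0.07, adjusted p = 6.6e-04) and the glucose carrier SLC2A1 (0.46 ± 0.08, adjusted p = 9.6e-04). On the negative side they were SLC30A10, ETNK2, an ethanolamine kinase (-0.53 ± 0.10), MYO10, an unconventional myosin (-0.42 ± 0.08), and C1orf115 (-0.36 ± 0.07, adjusted p = 0.0045). GDF15 (0.84 ± 0.15) and TMCC1 (0.71 ± 0.16) were also among the positive ones. Each medium-dose library carried weight here: 29 genes were called without medium-dose replicate 1, 37 without replicate 2 and 33 without replicate 3.

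**Figure D4:**
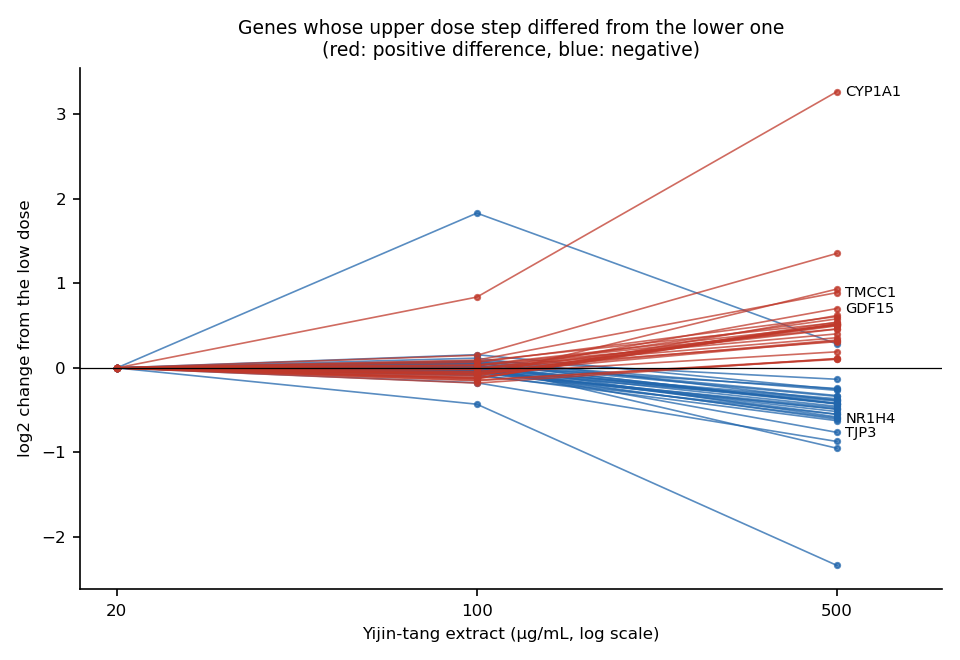
Log2 change from the low dose (vertical axis) at 20, 100 and 500 µg/mL (horizontal, log scale) for the 57 genes whose upper dose step differed from the lower one, red for a positive and blue for a negative difference. Nearly all lines stay close to 0 up to 100 µg/mL and move away from it between 100 and 500 µg/mL. The difference between the steps is what selected the genes, so a bend is built into every line. The line with the highest peak at 100 µg/mL is the pseudogene PHACTR2P1, whose mean level was below 0.5 CPM at every dose. Smaller turns at that dose also occur, upward as for SLC23A1 (0.16) and SLC30A10 (0.12) or downward as for SLC4A11 (-0.18).

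Against vehicle, both the high and the low dose differed at many genes. High dose against vehicle gave 3953 called genes (23.4%), and low dose against vehicle, a contrast added after the data were seen, gave 2578 (15.2%). Vehicle samples carry a sample code of their own, so code and treatment cannot be told apart. These counts also turned on scaling. With library size alone the high dose had 3942 genes higher and 991 lower than vehicle, in place of 1885 and 2068, and the low dose had 3897 higher and 361 lower, in place of 1203 and 1375. The median log2 change over all genes was then 0.11 and 0.13. For the low dose the count was 1578 without vehicle replicate 1 and 1523 without low-dose replicate 3. HAMP had a log2 change of -1.17 between high dose and vehicle (adjusted p = 2.5e-06) and -0.08 between low dose and vehicle (adjusted p = 0.81), NR1H4 -0.62 and -0.01, and TMCC1 0.76 and -0.13. For CEBPA the log2 change between high dose and vehicle was -0.09 (adjusted p = 0.33), for GLUD1 -0.07 (adjusted p = 0.22) and for DDX21 0.10 (adjusted p = 0.18).

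Soshiho-tang, tested at the same doses, allowed the Yijin-tang response to be set against that of another decoction. The difference between the 2 responses was tested directly and passed for 149 genes (0.88%), in 39 of which it was positive (Yijin-tang minus Soshiho-tang) and in 110 negative. SOS1 (chr2:38981396-39124345), which activates RAS, had the smallest adjusted p of the named genes. In Yijin-tang it was at 90.001, 87.8 and 80.9 CPM at the low dose and 106, 108 and 103 CPM at the high dose, and in Soshiho-tang at 105 and 106 CPM and 470.1 and 460.0 CPM. The change was larger in Soshiho-tang, and the difference was -1.84 ± 0.10 on the log2 scale (adjusted p = 7.6e-18). RGMB, a co-receptor of BMPs, went from 13.8 and 13.8 CPM to 35.4 and 35.7 CPM in Soshiho-tang and from 9.32, 10.4 and 10.9 CPM to 13.7, 12.7 and 13.02 CPM in Yijin-tang (difference -1.01 ± 0.12, adjusted p = 9.8e-07).

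Liver enzymes and channels were among the genes that differed. KCNJ10, a potassium channel, was at 36.1, 38.3 and 37.1 CPM at the low and 33.99, 35.2 and 35.3 CPM at the high dose of Yijin-tang, where it was not called, and at 35.9 and 34.96 CPM and 18.1 and 17.1 CPM in Soshiho-tang (difference 0.91 ± 0.13, adjusted p = 1.9e-05). ADH4, an alcohol dehydrogenase of liver, followed the same order, with a log2 change of -0.10 in Yijin-tang and -0.79 in Soshiho-tang. TRIM50, a ubiquitin ligase, was the reverse: 19.2, 19.9 and 19.4 CPM and 10.8, 9.96 and 10.2 CPM in Yijin-tang, against 17.9 and 17.3 CPM and 15.6 and 16.4 CPM in Soshiho-tang (difference -0.79 ± 0.12, adjusted p = 5.3e-05). CEBPA had a log2 change of -0.75 in Soshiho-tang and -0.36 in Yijin-tang (adjusted p of the difference = 0.046). For HAMP the difference was 0.25 ± 0.29 (adjusted p = 0.91) and for NR1H4 0.27 ± 0.10 (adjusted p = 0.37). The number of calls was 65 to 86 without 1 of the 4 Soshiho-tang libraries.

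**Figure D5:**
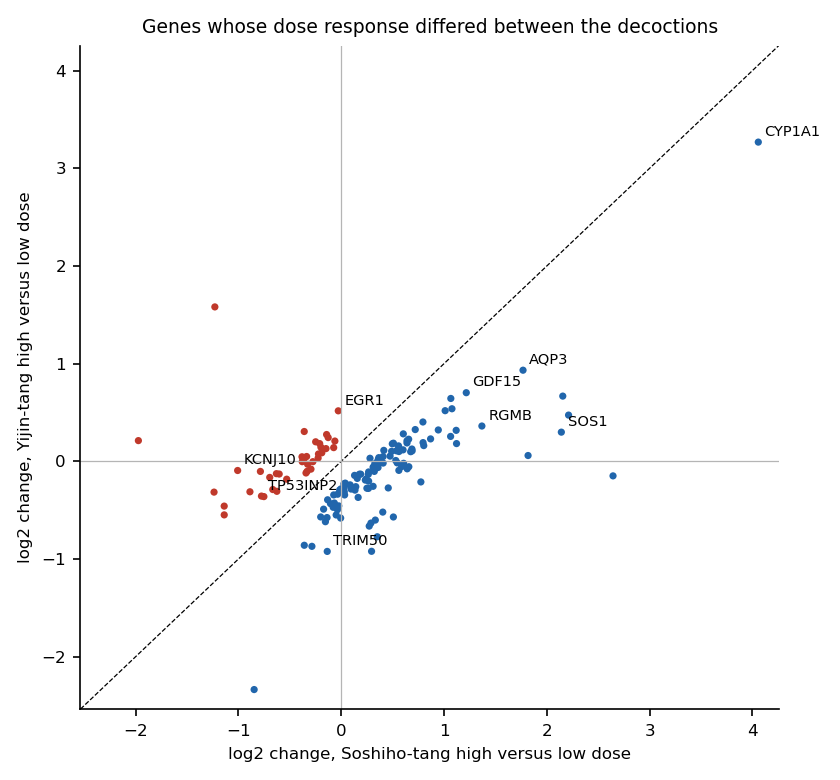
Log2 change between high and low dose in Yijin-tang (vertical axis) against the same change in Soshiho-tang (horizontal axis) for the 149 genes whose changes differed, red where the difference was positive and blue where it was negative. The dashed line marks equal change, and distance from it is what selected the genes. CYP1A1, a reference gene, has the highest change in both, and SOS1 lies at 2.14 in Soshiho-tang and 0.30 in Yijin-tang.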

How the data were processed

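RNA from HepG2 cells was sequenced in 60 libraries. The authors deposited expected counts per gene, estimated by RSEM 1.3.3 after FastQC 0.11.9, Trim Galore 0.6.5 and STAR 2.7.3a on hg38 (GRCh38), per the submitters' processing notes. RSEM divides reads that match several genes by its model, so near-identical genes share an uncertain split. A fraction was present in 10.4% of the values, and expected counts were rounded to whole numbers. Totals were 20744960 to 37999124 counts per library.

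The fit used edgeR 4.0.16 in R 4.3.3 (quasi-likelihood test, TMM scaling, filterByExpr), with 54 libraries in 19 groups sharing 1 estimate of the spread. Extracts with 1 library a dose were left out. Of 60675 genes 16924 were tested, 16698 with a symbol and 16812 with a position in the reference tables. Calls needed a Benjamini-Hochberg adjusted p under 0.05. CPM values are counts divided by TMM-scaled library sizes, and standard errors are the size of the log2 change over the root of the F statistic. Alternatives were relative log expression scaling, library size alone, no filter, DESeq2 1.42.0, the 9 Yijin-tang libraries alone, a replicate block, other thresholds and leaving out each library. The fit was also run on simulated counts with changes planted in the high-dose libraries. The outcome of that run is not given here and is not used as support.

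Members, 37 described lists and 5 reference lists were chosen with earlier results of these data known. Named genes were, among called genes that had a symbol, reached a mean of 5 CPM at either dose and lay outside the reference lists, the 14 with the highest and 14 with the lowest log2 change, the 6 with the highest gain and 6 with the highest loss in CPM, up to 4 called genes of each list by p (these without the minimum of 5 CPM), and the 4 with the smallest p in each direction for the dose step and Soshiho-tang tests, plus 5 reference genes. Other list members are given by their log2 change only. Results for some genes are not reported here.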

Additional observations from a re-analysis of the deposited data

Results flagged for a closer look

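Of the named genes, 24 had a change between high and low dose that differed between Yijin-tang and Soshiho-tang by the interaction term of the edgeR fit, at an adjusted p under 0.05. The values below are the Yijin-tang change minus the Soshiho-tang change on the log2 scale, and the Soshiho-tang groups hold 2 libraries each. Of these genes, 8 were named because of this test. Beside them, 65 to 126 of all genes passed it with 1 library left out, in place of 149.

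In 8 genes the difference was positive. It was 0.91 for KCNJ10, 0.68 for ADH4, 0.55 for EGR1, 0.42 for TP53INP2, 0.39 for CEBPA, 0.39 for FAM83D, 0.37 for TRIB1 and 0.27 for HSPA5. KCNJ10, ADH4 and FAM83D were not called between the Yijin-tang doses. HSPA5, the main chaperone of the endoplasmic reticulum, had a log2 change of 0.21 in Yijin-tang and -0.06 in Soshiho-tang, and EGR1, an immediate early factor, of 0.52 and -0.03.

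In 16 genes the difference was negative. It was -1.84 for SOS1, -1.01 for RGMB, -0.84 for AQP3, -0.79 for CYP1A1, -0.79 for TRIM50, -0.64 for FAM171A1, -0.58 for INHBE and -0.51 for GDF15. It was -0.50 for HPX, -0.45 for DCDC2, -0.40 for SPATA18, -0.33 for PHGDH, -0.31 for GLUL, -0.30 for MYO10, -0.28 for DDB2 and -0.26 for C2. INHBE, an activin subunit of the liver, had a log2 change of -0.58 in Yijin-tang and -0.01 in Soshiho-tang, and PHGDH, of serine synthesis, of -0.24 and 0.09. GDF15 had 0.70 in Yijin-tang and 1.22 in Soshiho-tang.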

How the results depend on the processing

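Of the 161 named genes, 157 were called between high and low dose. Each was followed through at most 12 alternative fits, without the stricter thresholds. Of the 157, 120 kept their call under all of these fits and 37 lost it under at least 1. Of the 37, 13 lost it only when a library was left out, and none changed direction. Counts for high against low dose ranged from 836 to 1030 when 1 library was left out, and were 731 at an adjusted p under 0.01 and 177 with at least 1.5-fold change. Medium against low dose gave 89 calls with no filter on low counts, 9 with the Yijin-tang libraries alone, 8 with DESeq2, and 1 to 1 when 1 library was left out. High against medium dose gave 491 to 619 with 1 library left out. For the difference between dose steps the counts were 183 with no filter, 132 with the Yijin-tang libraries alone, 95 with DESeq2 and 29 to 53 with 1 library left out. For the difference from Soshiho-tang they were 237 with no filter, 327 with the libraries of the 2 decoctions alone and 65 to 126 with 1 library left out. High dose against vehicle gave 3130 to 3412 with 1 library left out, and low dose against vehicle, added after seeing the data, 1523 to 2305, and 4258 with library size alone. The cause of these shifts was not tested. Of 74 list counts, 37 moved by more than 1.5 times under at least 1 alternative. With replicate number as a replicate block, high against low dose gave 1534 calls (745 higher, 789 lower), high against medium dose 988, the difference between dose steps 105 and the difference from Soshiho-tang 193. Same-numbered high- and low-dose libraries had correlations of their deviations from the group mean of 0.000846, 0.000216 and -0.000969. For high and medium dose the correlations were 0.142, 0.068 and 0.162, each high-dose library's highest being with its own number. For medium and low dose they were -0.0515, 0.017 and 0.147. These values cannot decide whether same-numbered libraries were handled together. Depth of 23453668 to 30690514 counts limits genes under 1 CPM, of which 1.45% were called.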

Other observations

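Some members counted in the lists above but not described there by name also differed between high and low dose by edgeR's test. GLA, the lysosomal alpha-galactosidase, rose from a low-dose mean of 19.8 ± 1.01 to a high-dose mean of 25.9 ± 0.716 CPM (SD, n = 3) (log2 change 0.38 ± 0.07, adjusted p = 2.5e-04). NPC1, which moves cholesterol out of lysosomes, rose from a low-dose mean of 129.9 ± 3.97 to a high-dose mean of 149 ± 1.53 CPM (SD, n = 3) (log2 change 0.20 ± 0.05, adjusted p = 0.0026). SERPINE2, an inhibitor of serine proteases, had 27.7, 28.996 and 29.5 CPM at the low dose and 33.8, 38.4 and 36.7 CPM at the high dose, groups that did not overlap (log2 change 0.34 ± 0.05, adjusted p = 1.6e-05). NFKBIA, the inhibitor that NF-kB induces against itself, fell from a low-dose mean of 103 ± 3.35 to a high-dose mean of 87.7 ± 3.19 CPM (SD, n = 3) (log2 change -0.24 ± 0.06, adjusted p = 0.0038). NR2F2, an orphan nuclear receptor that partners with liver factors, changed by -0.25 ± 0.06 (adjusted p = 0.0029). TIMP3, an inhibitor of matrix proteases, changed by 0.19 ± 0.03 (adjusted p = 9.9e-05), and CANX, a chaperone of glycoproteins, by 0.16 ± 0.04 (adjusted p = 0.0014). These 7 genes kept their calls under each of the 12 alternative fits. The stricter thresholds were not part of that check, and none of the 7 changed by 1.5-fold.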
